A study of Mus musculus with 6 samples.

Results

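The genes described are those encoding the proteins of the mitochondrial ribosome that carry the Mrpl and Mrps names, taken as the protein-coding rows whose symbol is Mrpl or Mrps followed by a number and at most 1 letter. There were 78 of them among the 54532 genes of the deposited table, 49 named for the large subunit (Mrpl) and 29 for the small subunit (Mrps). RNA was sequenced from cultured mouse macrophages grown from bone marrow, as 6 libraries, of which the labels give 3 as Tet2 knockout and 3 as wild-type. The Tet2 enzyme acts on DNA by oxidising methylated cytosines, and mutations of its gene are frequent in clonal haematopoiesis, the outgrowth of a mutant blood stem cell. Every library came from cells treated with MSU, in work on gout the usual abbreviation of monosodium urate, whose crystals provoke the joint inflammation of that disease. The allele, the dose and duration of the treatment, and the age and sex of the mice are not given in the labels, and untreated cells were not analysed here, so the comparison is of genotype labels within MSU treatment and shows no response to MSU.

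Mitochondria keep a small genome of their own, and the proteins it encodes, all of them subunits of the respiratory chain and the ATP synthase, are made by a dedicated ribosome in the matrix. That ribosome has its RNA from the mitochondrial genome, whereas each of its proteins is encoded in the nucleus, translated in the cytosol and imported. Some of its proteins have counterparts in bacterial ribosomes and others are found only in mitochondria. In macrophages, mitochondrial respiration changes as the cells take on inflammatory or repair-associated states.

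Library totals ran from 11997104 to 14481843 counts. Libraries of 1 group correlated at 0.993 to 0.995 (Pearson's r of log2 CPM over genes) and libraries of different groups at 0.984 to 0.986, and wild-type-label replicate 2 stood apart on the axis of variation that carried 12.2% of the variance. Tet2 itself was not lower in the libraries labelled knockout: it had 33.7 ± 0.80 CPM there and 29.3 ± 1.41 CPM in those labelled wild-type (mean ± SD, n = 3 each; log2 difference 0.20, edgeR adjusted p = 0.0159; 0.0553 without knockout-label replicate 2 and 0.0799 without wild-type-label replicate 2). Gene-level counts do not show whether a part of the transcript is missing, so the labels could not be checked from them, and directions are given below as between libraries labelled knockout and libraries labelled wild-type. Markers of macrophages, 4 of 7 higher and 2 lower, summed to 5704 to 5978 CPM with the knockout label and 5444 to 5818 CPM with the wild-type label. Fibroblast markers, all 6 of them tested, summed to 6448 to 6612 and 6709 to 7185 CPM, with 3 lower, 1 higher and no overlap of the sums between groups. T cell markers, of which 1 of 6 was tested and was higher, summed to 11.6 to 12.6 and 3.47 to 3.96 CPM, with no overlap of the sums. Cd3d was at 0 in every library, and erythroid markers summed to at most 0.08 CPM. Endothelial markers (39.6 to 41.0 and 32.8 to 37.7 CPM) and dendritic cell markers (4.98 to 6.54 and 3.20 to 4.75 CPM) had 1 gene higher each and no overlap of the sums. The part of these cell types in the results below was not tested.

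Of the 78 genes, 77 had enough counts to be tested, with a median of 344 counts per library (131 to 706.5). CPM here is the TMM-scaled CPM of edgeR, the count of a gene relative to a fixed number of counts per library, and a gene is called higher or lower where the edgeR quasi-likelihood test gave a Benjamini-Hochberg adjusted p under 0.05 over all 13175 genes tested. In the libraries labelled knockout 20 of the 77 genes were lower and 1, Mrpl30, was higher, while 56 were not called. The 20 lower genes are 26.0% of the tested members, against 19.2% of all genes tested. The single higher gene is 1.30%, against 21.6% of all genes tested. In either direction 27.3% of the members and 40.9% of all genes tested were called. The share called lower was thus not far from that of all genes, and the share called higher was well below it; the difference between members and other genes was not tested.

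The differences were small. The 77 log2 differences (knockout label minus wild-type label) ran from -0.39 to 0.15 with a median of -0.11 and quartiles of -0.19 and -0.02, where all genes tested had a median of -0.00 and quartiles of -0.16 and 0.18. Not a single member differed by 0.5 or more on the log2 scale, whereas 11.7% of the genes tested did. A negative difference was found in 60 of the 77 members (77.9%), and in 50.5% of all genes tested. The standard error of a member's log2 difference had a median of 0.08, the same to 2 decimals as for all genes tested, so the uncalled members had about the precision of other genes. The CPM of all members summed to 2036, 2078 and 2043 in knockout-label replicates 1 to 3 and to 2172, 2245 and 2161 in the wild-type-label libraries, so the sums did not overlap. Because these are bulk libraries scaled to the total, fewer cells of a type and less RNA per cell cannot be told apart.

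**Figure D1:**
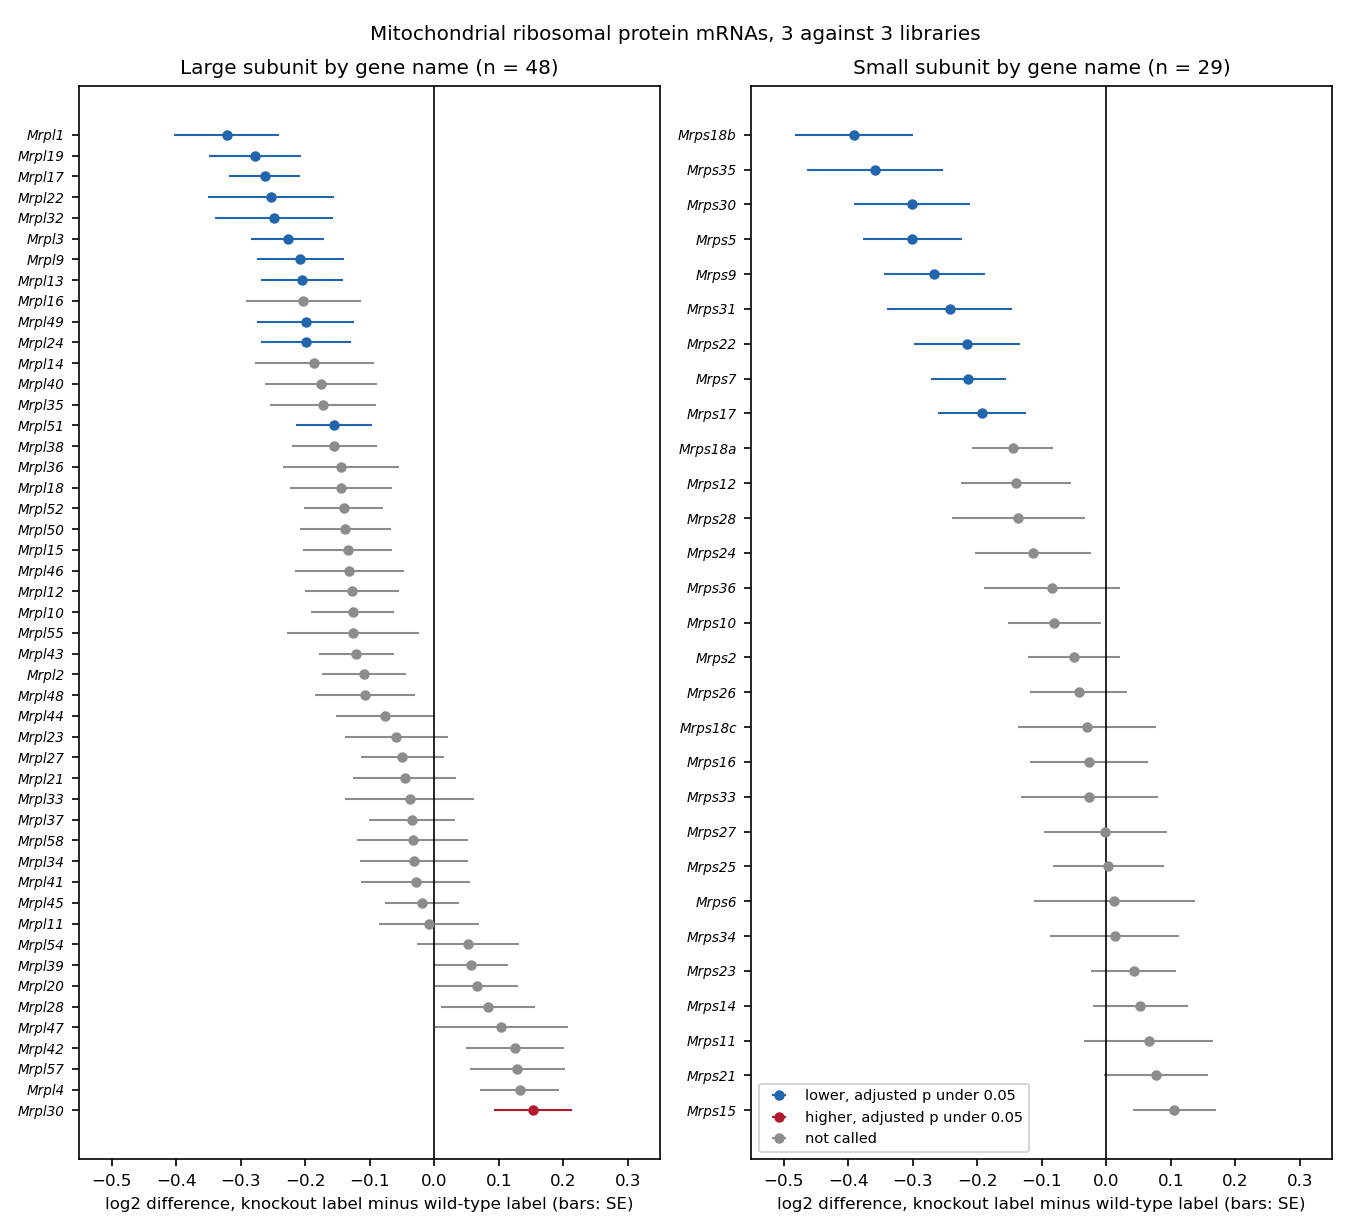
Log2 difference (libraries labelled knockout minus libraries labelled wild-type; horizontal axis) of each tested gene named for the large (48) and the small subunit (29), with bars for the standard error. The genes spread from -0.39 for Mrps18b to 0.15 for Mrpl30, and among the large-subunit genes some uncalled ones, such as Mrpl16, lie as far to the left as called ones.

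The groups did not overlap at all, every library of one lying below every library of the other, for 28 members in the lower direction (23.0% of all genes tested did so) and for 3 in the higher direction (24.8% of all genes tested); 47.8% of all genes tested had no overlap in either direction. Among the 20 lower members, 18 had no overlap, and the exceptions were Mrpl9 and Mrpl51. Calls and overlap were read from the same 6 libraries, so the absence of overlap is not separate evidence for the calls. Mrpl4, Mrpl57 and Mrpl30 were the 3 with every knockout-label library above. Measured from each gene's own mean over the 6 libraries, 59, 48 and 53 of the 77 members were below it in knockout-label replicates 1 to 3, and 29, 16 and 28 in wild-type-label replicates 1 to 3. The median deviation was smallest in size in knockout-label replicate 2 (-0.02 on the log2 scale). It was largest in wild-type-label replicate 2 (0.07), the library that stood apart over all genes. A gene's deviations from its own mean cancel out over the 6 libraries. The counts of both groups therefore depend on each other and are not separate evidence.

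The promoters of some members that fell are shown for the short letter strings they hold. Several regulators of mitochondrial protein genes bind such strings, and whether they act on these members was not tested. Nuclear respiratory factor 1 (Nrf1) binds a palindromic string, in capitals in the Mrpl9 and Mrpl32 lines, and its shorter core GCATGCGC; the ETS-family factor GABP (Gabpa with Gabpb1) binds around CCGGAAG, and Yy1 binds around AAGATGGC. Windows of 300 bases, 250 before the start of transcription and 50 after it, were taken from RefSeq (GRCm38.p6). A window was found for 69 of the 78 members, 75 windows in all, and for 17 of the 20 lower members. Both strands were searched. At least 1 of these strings was found for 10 of the 17 lower members with a window, and for 38 of all 69 members with one. The lines below were chosen from lower members with a match. Each line gives 30 bases on the strand of the gene, 5′ to 3′, with the matched letters in capitals.
Mrpl9: aggcgcagctGCGCATGCGCggggtccttc
Mrpl32: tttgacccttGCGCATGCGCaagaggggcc
Mrps18b: aacggcccgacGCATGCGCactgggagcac
Mrpl17: gccgagttactGCGCATGCgtcctctgaga
Mrpl22: ggcctcggactGCGCATGCgtatagtcagc
Mrpl3: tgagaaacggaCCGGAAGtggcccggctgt
Mrps22: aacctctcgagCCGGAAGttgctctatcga
Mrps7: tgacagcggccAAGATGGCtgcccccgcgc
The first 2 lines carry the whole Nrf1 string, at chr3:94443298-94443327 on the + strand for Mrpl9 and chr13:14613105-14613134 on the - strand for Mrpl32. The next 3 carry its core, at chr17:35916645-35916674 (- strand) for Mrps18b, chr7:105811080-105811109 (- strand) for Mrpl17 and chr11:58171620-58171649 (+ strand) for Mrpl22. The ETS string lies at chr9:105053238-105053267 (+ strand) for Mrpl3 and chr9:98601672-98601701 (- strand) for Mrps22, and the Yy1 string at chr11:115604147-115604176 (+ strand) for Mrps7. In Mrpl17 the match begins 11 bases before the annotated start, in Mrpl9 28 bases and in Mrps18b 223 bases before it, and in Mrps7 18 bases after it. The window of Mrps18b holds the core again, beginning 28 bases after the start.

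The ETS and Yy1 strings were more frequent in the members' windows than in those of all tested genes, both in lower and in uncalled members, while the Nrf1 strings were about as frequent in uncalled members as in all tested genes. CCGGAAG was in 34.7% of the members' windows, 17.3% of the 12533 windows of tested genes and 8.86% of all 32851 windows. AAGATGGC was in 16.0%, 4.35% and 2.75%, and the whole Nrf1 string in 4%, 2.03% and 0.97%. The core GCATGCGC, which every match of the longer string contains, was in 10.7%, 5.09% and 2.71%. Lower members and uncalled members held CCGGAAG in 6 of 17 (35.3%) and 19 of 56 windows (33.9%), and AAGATGGC in 3 of 17 (17.6%) and 9 of 56 (16.1%). The core GCATGCGC was in 5 of 17 windows of lower members (29.4%) and 3 of 56 of uncalled members (5.36%), counts too small to read an order from, and the whole Nrf1 string was in 2 of 17 (11.8%) and 1 of 56 (1.79%). Searched in the same way, the string TCAAGGTCA of the receptor Esrra was in 0 of the 75 members' windows and 0.26% of those of tested genes, and the CREB string TGACGTCA was in 2.67% and 3.01%. Mrpl39, which was not called (log2 difference 0.06), holds the whole string at chr16:84735350-84735379 on the - strand, so a match did not go with a call in every case.
Mrpl39: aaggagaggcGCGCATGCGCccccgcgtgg
The match is a description of letters and not of binding. The members' windows had a median GC content of 58.7%, and those of tested genes 60.7%.

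The large subunit holds the centre where peptide bonds are formed and the tunnel through which the new chain leaves. Of its 48 tested genes by name 11 were lower, 1 was higher and 36 were not called, with a median log2 difference of -0.13 and 39 negative. The lower share was 22.9% and the higher share 2.08%, against 19.2% and 21.6% of all genes tested. Their CPM summed to 1405, 1424 and 1407 in the knockout-label libraries and to 1479, 1554 and 1484 in the wild-type-label libraries.

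Mrpl1 encodes the protein of the mobile L1 stalk, by which spent transfer RNA leaves the ribosome (ENSMUSG00000029486, chr5:96209493-96266727, + strand; coordinates are the deposited ones, on mm10). It had 21.0, 19.3 and 20.8 CPM in the knockout-label libraries and 23.4, 26.9 and 26.3 CPM in the wild-type-label libraries. Mrpl1 fell to 80.0% of the wild-type-label level (log2 difference -0.32, SE 0.08, edgeR adjusted p = 0.000663), with no overlap between groups. Mrpl19 (chr6:81957851-81965958, - strand), a protein with a bacterial counterpart, had 27.7, 28.9 and 26.0 CPM against 32.5, 36.2 and 31.8 CPM. Its log2 difference was -0.28 (SE 0.07, edgeR adjusted p = 0.000802), and again all 3 knockout-label libraries lay below the others. Mrpl3 (chr9:105053239-105079888, + strand), whose bacterial counterpart reaches toward the peptidyl transferase centre, was more abundant, with 48.3, 48.1 and 44.0 CPM against 55.0, 58.3 and 51.6 CPM. It fell by 0.23 on the log2 scale (SE 0.06, edgeR adjusted p = 0.000540). Mrpl32 (chr13:14608184-14613165, - strand), which the m-AAA protease of the inner membrane cleaves before assembly, had 17.4, 18.3 and 14.5 CPM against 21.1, 19.4 and 19.3 CPM. Its fall (log2 difference -0.25, SE 0.09, edgeR adjusted p = 0.0216) depended on single libraries, the adjusted p being 0.215 without knockout-label replicate 3 and 0.110 without wild-type-label replicate 1.

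Around the exit of the tunnel, 3 of 6 genes were lower and none was higher, where 19.2% of all genes tested were lower and 40.9% called. Mrpl17 (chr7:105803206-105811099, - strand) had the smallest adjusted p of all members, with 47.7, 46.2 and 48.1 CPM against 54.9, 59.7 and 56.0 CPM. Its level was 83.3% of the wild-type-label mean (log2 difference -0.26, edgeR adjusted p = 3.81e-05) and the groups lay well apart. Mrpl22 (chr11:58171661-58179565, + strand), which lines the tunnel, had 14.0, 13.4 and 14.7 CPM against 15.7, 18.4 and 16.2 CPM (log2 difference -0.25, edgeR adjusted p = 0.0296). That call was lost without knockout-label replicate 1 (0.0712), knockout-label replicate 2 (0.108) or wild-type-label replicate 2 (0.154). Mrpl24 had 30.5, 27.1 and 32.1 CPM against 33.3, 35.2 and 34.5 CPM (log2 difference -0.20, edgeR adjusted p = 0.0162; 0.187 without knockout-label replicate 2, 0.0632 by DESeq2 and 0.0546 with the length trend removed). The other 3 genes of the exit were not called. Mrpl45, which anchors the ribosome to the inner membrane, had 49.0, 54.9 and 46.8 CPM against 51.7, 53.3 and 48.0 CPM (log2 difference -0.02). Mrpl23 differed by -0.06 and Mrpl47 by 0.10, the latter with overlapping groups and a wild-type-label library at 20.3 CPM beside others at 15.7 and 13.5 CPM.

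At 2 other sites of the large subunit, with 3 and 4 genes, no gene was called, where 40.9% of all genes tested were. In the stalk that recruits translation factors, Mrpl12 had 27.4, 26.6 and 28.8 CPM against 29.1, 31.2 and 30.3 CPM (log2 difference -0.13, edgeR adjusted p = 0.157). Mrpl10, which ties Mrpl12 to the ribosome, differed by -0.13 (edgeR adjusted p = 0.107), with every knockout-label library below the others in both genes. Mrpl11 differed by -0.01. In the central protuberance, where the subunits meet, Mrpl40 differed by -0.18, Mrpl38 by -0.16 (edgeR adjusted p = 0.0505), Mrpl46 by -0.13 and Mrpl48 by -0.11. All 4 had overlapping groups. Mrpl38 was sensitive to single libraries, with 45.1 CPM in wild-type-label replicate 2 against 36.8 and 38.5 CPM in the other 2. It was called lower without knockout-label replicate 1 (0.0439), wild-type-label replicate 1 (0.0129) or wild-type-label replicate 3 (0.0396). The same was so of Mrpl40 without knockout-label replicate 1 (0.0221) or wild-type-label replicate 2 (0.0388). Mrpl47 was called higher without wild-type-label replicate 2 (0.0364).

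Mrpl30 was the only member called higher. It encodes a protein with a bacterial counterpart (chr1:37890477-37898535, + strand) and had 44.2, 44.0 and 44.3 CPM against 40.6, 40.1 and 38.5 CPM. The knockout-label libraries agreed within 0.191 CPM (SD) and lay above the others (log2 difference 0.15, SE 0.06, edgeR adjusted p = 0.0346). The call depended on the setting. Over 17 alternatives its adjusted p ranged from 0.0119 to 0.495, and the call was lost in 9 of them, among these DESeq2 (0.116). The 9 include 5 removals of a library, without knockout-label replicate 1 (0.0748), 2 (0.0690) or 3 (0.0736) and without wild-type-label replicate 2 (0.0524) or 3 (0.146). A pseudogene named for Mrpl30 is in the annotation, as for 6 other members. It had 0.07 CPM on average with the knockout label and 0.02 CPM with the wild-type label, so few reads were assigned to it. Whether reads that match both were left uncounted was not tested.

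The small subunit binds messenger RNA and reads its codons. Of its 29 genes by name, all tested, 9 were lower, 0 higher and 20 not called, with a median log2 difference of -0.08 and 21 negative. The lower share was 31.0%, against 19.2% of all genes tested, of which 21.6% were higher. At an unadjusted p under 0.05, 30 members of both subunits passed, 2 of them higher; that is 39.0% of the members, against 47.3% of all genes tested. The small-subunit sums were 631, 654 and 636 CPM in the knockout-label libraries and 693, 691 and 677 CPM in the wild-type-label libraries.

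Mrps18b, 1 of 3 mammalian paralogs of a bacterial small-subunit protein, had the largest difference of all members (ENSMUSG00000024436, chr17:35910379-35916389, - strand). It had 14.7, 15.8 and 16.0 CPM in the knockout-label libraries and 22.6, 19.6 and 18.8 CPM in the wild-type-label libraries. These are 15.5 ± 0.689 and 20.3 ± 2.02 CPM (mean ± SD, n = 3 each), or 76.3% of the wild-type-label level (log2 difference -0.39, SE 0.09, edgeR adjusted p = 0.000234). It was the only member to keep its call in all 17 alternative settings, with adjusted p between 0.000116 and 0.0412. The 2 paralogs were not called. Mrps18a had 37.0, 36.5 and 36.9 CPM against 41.0, 40.0 and 41.0 CPM, with little spread in either group and no overlap (log2 difference -0.14, edgeR adjusted p = 0.0553, and 0.0467 without wild-type-label replicate 2). Mrps18c had 13.2, 11.2 and 14.2 CPM against 13.6, 13.7 and 12.1 CPM (log2 difference -0.03) and its groups overlapped.

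Mrps35, a protein found only in mitochondrial ribosomes (chr6:147042764-147073991, + strand), had 11.2, 12.7 and 11.5 CPM against 16.8, 14.5 and 14.1 CPM (log2 difference -0.36, SE 0.10, edgeR adjusted p = 0.00336). The highest of the wild-type-label libraries was replicate 1, and without it the adjusted p was 0.0547. Mrps5 (chr2:127587222-127606829, + strand), whose bacterial counterpart lies near the entry of messenger RNA, had 22.8, 23.6 and 24.2 CPM against 30.6, 26.9 and 29.3 CPM (log2 difference -0.30, SE 0.08, edgeR adjusted p = 0.000670). Mrps9 (chr1:42851233-42905683, + strand), whose bacterial counterpart touches the transfer RNA at the site of peptide transfer, had 23.1, 21.9 and 22.8 CPM against 26.1, 27.4 and 28.1 CPM (log2 difference -0.27, SE 0.08, edgeR adjusted p = 0.00329). In both genes the groups did not overlap. Mrps31 (chr8:22411361-22429665, + strand), also only mitochondrial, was lower by a smaller margin, with 13.8, 15.1 and 13.5 CPM against 16.2, 16.8 and 17.1 CPM (log2 difference -0.24, edgeR adjusted p = 0.0365). Its call was lost under 8 of 17 alternatives, among them DESeq2 (0.108), no filter on low counts (0.0603), the length trend removed (0.0587), and the libraries without knockout-label replicate 1 (0.106) or 3 (0.119) and without wild-type-label replicate 2 (0.0552) or 3 (0.10).

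The other called members differed by -0.22 to -0.16 on the log2 scale. Mrps7 had 42.5, 46.3 and 45.3 CPM against 50.6, 54.9 and 50.3 CPM (log2 difference -0.21, edgeR adjusted p = 0.00142). Mrps22 had 20.5, 20.5 and 20.0 CPM against 22.8, 24.9 and 23.2 CPM (log2 difference -0.22, edgeR adjusted p = 0.0275), and lost its call without any 1 of the knockout-label libraries (0.0573, 0.0545 and 0.0759) or without wild-type-label replicate 2 (0.0931). Mrpl13 had 34.8, 33.7 and 36.9 CPM against 41.6, 40.8 and 39.1 CPM (edgeR adjusted p = 0.00618; 0.0501 without knockout-label replicate 2). These 3 genes had no overlap between groups. Mrps17 had 28.5, 32.6 and 31.5 CPM against 35.4, 35.2 and 35.2 CPM (edgeR adjusted p = 0.0171; 0.159 without knockout-label replicate 1). Mrpl49 had 24.1, 25.6 and 26.3 CPM against 30.6, 29.5 and 27.1 CPM (edgeR adjusted p = 0.0254), a call lost without replicate 1 of the knockout label (0.13) or of the wild-type label (0.12). The remaining genes had overlapping groups. Mrpl9 had 31.4, 37.2 and 40.7 CPM against 44.0, 42.9 and 39.1 CPM, its call being lost without replicate 1 of the knockout label (0.249) or of the wild-type label (0.0668). Mrpl51 had 43.8, 49.4 and 43.7 CPM against 48.4, 55.3 and 49.3 CPM. It was lost without knockout-label replicate 1 (0.151) or 3 (0.143) or wild-type-label replicate 2 (0.186).

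**Figure D2:**
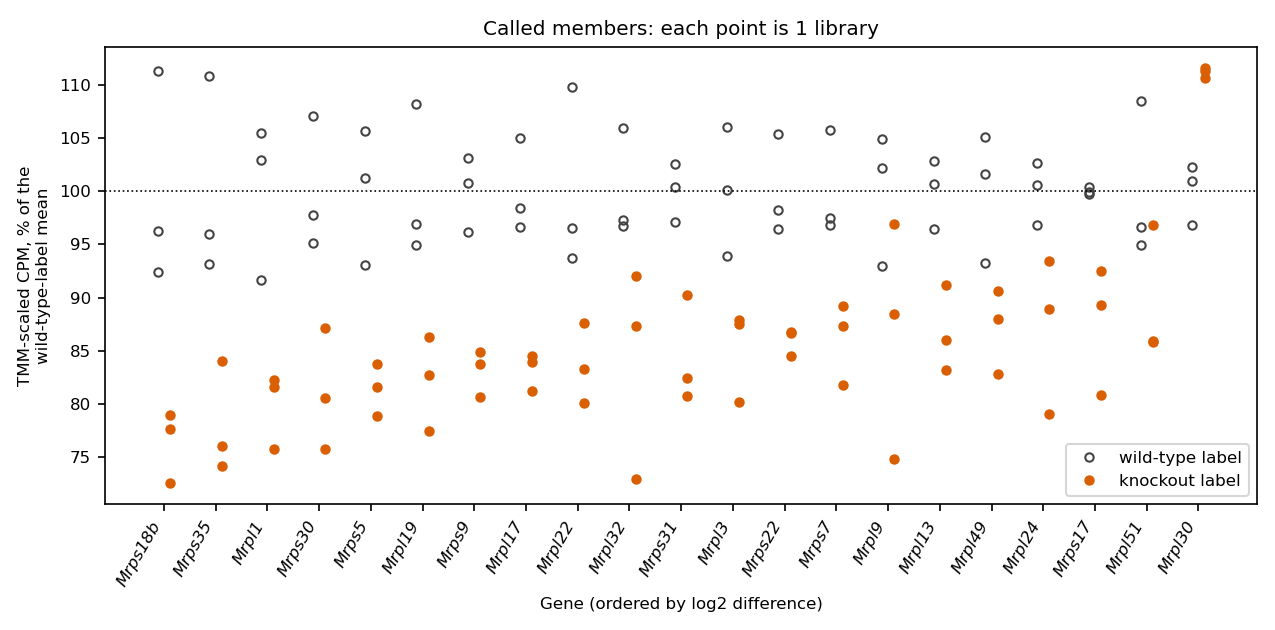
CPM of each called member in each library (1 point per library), as a percentage of that gene's mean over the 3 libraries labelled wild-type (vertical axis), in the order of the log2 difference. For 18 of the 20 lower genes all filled points (knockout label) lie below the open ones, Mrpl9 and Mrpl51 overlap, and Mrpl30 is reversed.

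Large and small subunit differed little from each other. The small-subunit genes made up 31.0, 31.5 and 31.1% of the members' summed CPM in the knockout-label libraries and 31.9, 30.8 and 31.3% in the wild-type-label libraries, so the shares overlapped between groups. Gene names and places in the structure do not always match. Mrps30 and Mrps18a are built into the large subunit, and Mrps36 is a component of the 2-oxoglutarate dehydrogenase complex of the citric acid cycle. Mrps30 (chr13:118378381-118387252, - strand) fell, with 16.4, 17.8 and 15.4 CPM against 21.8, 19.4 and 19.9 CPM (log2 difference -0.30, SE 0.09, edgeR adjusted p = 0.00402). Mrps36 was not called, with 12.4, 12.9 and 12.5 CPM against 13.9, 13.3 and 12.8 CPM (log2 difference -0.08). With genes placed by structure, 12 of 50 large-subunit genes were lower (24%) and 1 higher, with a median log2 difference of -0.13. Among 26 small-subunit genes 8 were lower (30.8%), with a median of -0.05, where 19.2% of all genes tested were lower. The small-subunit median thus depended on the 3 genes that are moved.

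Proteins with and without a bacterial counterpart were found among the lower genes. Classes follow the standard ribosomal protein names, in which Mrps18a and Mrps18b stand among the mitochondria-specific proteins although they are paralogs of a protein with a bacterial counterpart. Of 46 members with a counterpart by that naming, 13 were lower (28.3%) and 1 higher, with a median log2 difference of -0.13. Of 30 named as specific to mitochondria, 7 were lower (23.3%), Mrps18b among them, with a median of -0.09. Over all genes tested 19.2% were lower. Among genes with the Mrpl name 9 of 30 with a bacterial counterpart were lower (30%) and 2 of 18 without (11.1%). Among small-subunit genes placed by structure the counts were 4 of 16 (25%) and 4 of 10 (40%), the latter with Mrps18b. Mrps30, which was lower, and Mrps18a, which was not called, are built into the large subunit and enter neither of these splits. They are counted among the 30 genes named as specific to mitochondria. No difference between these classes was tested.

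Levels per length, as CPM per kilobase, had a median of 11.9 over the tested members. The highest were Mrpl52 at 41.1, Mrpl43 at 39.1 and Mrpl27 at 38.0, and none of these 3 was called. Mrpl52 had 42.3, 44.7 and 42.8 CPM against 44.4, 53.9 and 45.2 CPM (log2 difference -0.14, edgeR adjusted p = 0.0578), and it was called lower without wild-type-label replicate 1 (0.0166) or 3 (0.0280). Mrpl43 differed by -0.12 and was called lower without knockout-label replicate 2 (0.0485) or wild-type-label replicate 1 (0.0457). Mrpl27 differed by -0.05. The lowest were Mrps35 at 1.56, Mrpl33 at 2.02 and Mrps30 at 2.77. The first and the last of these were called lower, and Mrpl33 had 13.5, 16.2 and 14.0 CPM against 14.3, 16.0 and 14.7 CPM (log2 difference -0.04).

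The lower calls gathered among the longer genes. Of the 38 members longer than the median deposited length of 2255 bases, 15 were lower and 1 higher; of the 39 at or below it, 5 were lower and 0 higher. The median log2 difference was nearly equal, -0.12 and -0.11, and the median count was 374 and 304 per library. Among all genes tested, the shares called lower were 19.3% of the longer genes and 18.9% of the shorter. Over the 77 members the log2 difference had a Spearman rho of -0.24 with length, against 0.10 over all 13175 genes, and of 0.25 with GC content, against -0.02 over the 13163 genes with a GC value. These correlations are across genes, which share the same 6 libraries. With the trend of the log2 difference on length over all genes removed, 18 members were lower and 2 higher, and their median was -0.09.

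**Figure D3:**
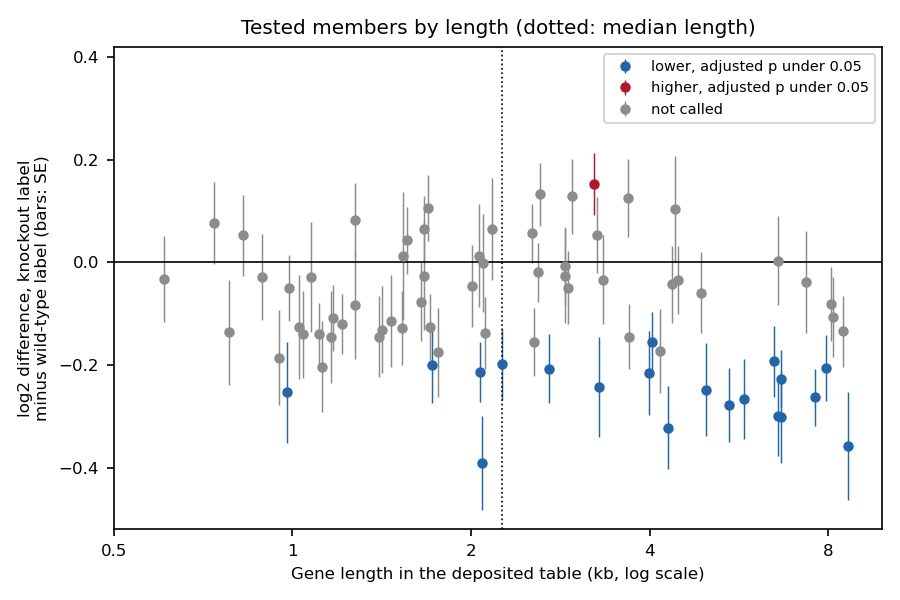
Log2 difference of each tested member (vertical axis, bars for the standard error) against its length in the deposited table (horizontal axis, kilobases, log scale), with the median length dotted. Of the 38 genes to the right of the dotted line 15 were lower, and of the 39 at or left of it 5.

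Mrpl53 was the 1 member with no counts. Its row (chr6:83109040-83109939, + strand) had 0 counts in all 6 libraries, which allows a level of up to 0.207 to 0.25 CPM by library, taking 3 counts as the limit, for counting error only. It lies for all of its 900 bases inside another gene model on the same strand, Gm42688 (chr6:83101617-83109939), which had 7, 7 and 8 counts under the knockout label and 10, 3 and 13 under the wild-type label. Reads that 2 gene models share can be left uncounted, so this 0 is not a measure of the gene; whether it arose that way was not tested. In all, 41 members were overlapped by another gene. Of the 37 with no overlapping gene 7 were lower (18.9%) and 1 higher, with a median log2 difference of -0.05. Among the 40 others that were tested 13 were lower (32.5%), with a median of -0.13, where 19.2% of all genes tested were lower. Mrpl3 and Mrpl51 are among the lower genes overlapped on their own strand.

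Many members share a promoter region with a neighbour. The start of a protein-coding gene on the opposite strand lay within 500 bases for 26 tested members (33.8%), against 13.6% of the 12106 protein-coding genes tested. These were 25 pairs, as Mrpl46 and Mrps11 are paired with each other. Of 25 such partners tested 5 were higher, 1 was lower and 19 were not called, where 21.6% of all genes tested were higher and 19.2% lower. Mitd1, the partner of Mrpl30, was higher (33.8 against 26.7 CPM, log2 difference 0.34), and both genes of that pair went the same way. Zfp661, the partner of Mrps5, was lower with it (3.11 against 4.39 CPM, log2 difference -0.48, edgeR adjusted p = 0.0442). Elsewhere the partners parted. Ncapd2, a condensin subunit beside the lower Mrpl51, was higher by 0.21, and Wdfy1, beside the uncalled Mrpl44, was higher by 0.61. Eme1 and Eme2, partners of a structure-specific endonuclease, were higher by 0.51 and 0.67 beside the uncalled Mrpl27 and Mrps34. Ppp1r10, which starts 45 bases from Mrps18b, had 85.8 and 88.8 CPM (log2 difference -0.05, edgeR adjusted p = 0.390). Psma2 beside Mrpl32 and Fau beside Mrpl49 differed by 0.00 and 0.01. Of the 7 tested partners of lower members, 1 was lower and 1 higher, not far from the shares of all genes tested. So few pairs do not show whether members and neighbours fall together, and this was not tested. The partners were named after their values were seen.

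**Figure D4:**
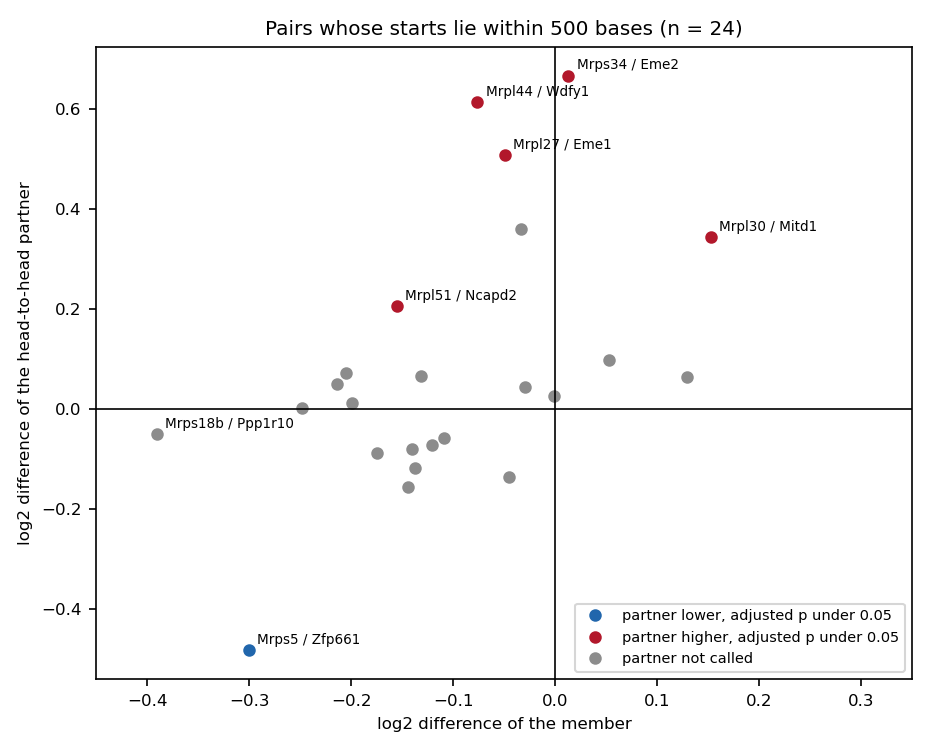
Log2 difference of the partner gene (vertical axis) against that of the member (horizontal axis) for the 24 pairs with starts within 500 bases and both genes tested. Only Mrps5 with Zfp661 has both genes called lower and only Mrpl30 with Mitd1 both called higher, while most partners of lower members lie near 0.

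For the 5 listed proteins of the mitochondrial ribosome whose genes have other names, 1 was lower (20%, against 19.2% of all genes tested). Gadd45gip1, a large-subunit protein, had 16.9, 13.2 and 16.8 CPM in the knockout-label libraries and 18.3, 21.0 and 21.5 CPM in the wild-type-label libraries (log2 difference -0.37, SE 0.09, edgeR adjusted p = 0.000602). The small-subunit genes Dap3 (GTP-binding), Ptcd3 (near the messenger RNA entry), Chchd1 and Aurkaip1 differed by -0.11, -0.11, -0.18 and -0.06 and were not called, though Chchd1 was without wild-type-label replicate 3 (0.0291). The median of the 5 was -0.11, the same as that of the Mrpl and Mrps genes.

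The machinery that works with the ribosome had called genes in both directions. Of 27 tested genes for its assembly and for modification of its RNA, 6 were lower and 2 higher (median log2 difference -0.12), so 22.2% were lower and 29.6% called, against 19.2% and 40.9% of all genes tested. Mrm1, which methylates a ribose in the large ribosomal RNA, had 16.6, 15.1 and 15.4 CPM against 24.3, 26.1 and 26.3 CPM, a larger fall than in any Mrpl or Mrps gene (log2 difference -0.70, edgeR adjusted p = 1.11e-11). The large-subunit assembly factors Gtpbp10 and Malsu1 were each lower by a log2 difference of -0.39 (edgeR adjusted p = 0.00168 and 0.00188). Rbfa, which matures the small-subunit RNA, was higher (33.3, 33.4 and 34.3 CPM against 27.9, 26.6 and 27.8 CPM; log2 difference 0.29, edgeR adjusted p = 0.000312), and so was Afg3l2, a subunit of the m-AAA protease (0.11, edgeR adjusted p = 0.0132; 0.0937 without knockout-label replicate 3 and 0.0617 without wild-type-label replicate 1). Of 13 tested translation factors 3 were higher and 0 lower (median -0.04); 23.1% were thus higher, against 21.6% of all genes tested. They were Mtfmt, which formylates the initiator transfer RNA (13.9 against 10.9 CPM on average, log2 difference 0.34), and the elongation and recycling factors Gfm1 (0.14) and Gfm2 (0.22). The call of Gfm1 (edgeR adjusted p = 0.0391) was lost in every removal of a single library except that of wild-type-label replicate 1 or 2, with 0.0991, 0.0680 and 0.0825 without knockout-label replicates 1 to 3 and 0.337 without wild-type-label replicate 3.

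The transcripts that this ribosome reads were mostly higher. Of 13 messenger RNAs of the mitochondrial genome 10 were tested, and 8 were higher and 1 lower (median log2 difference 0.46). These are 80% higher and 10% lower, against 21.6% and 19.2% of all genes tested. The untested mt-Nd3, mt-Nd4l and mt-Atp8 had at most 11 counts in a library. Mt-Nd1, a subunit of complex I, had 322, 306 and 294 CPM against 236, 217 and 240 CPM, and mt-Cytb of complex III was higher by 0.49. The lower one was mt-Co3, by -0.48 (7.93, 8.31 and 8.78 CPM against 10.4, 11.9 and 12.5 CPM). It had few reads, as did mt-Co2 (6.72 against 6.25 CPM on average) and mt-Atp6 (6.90 against 5.15 CPM). By comparison, mt-Co1 had 1749 against 1216 CPM. Why these genes had so few reads was not tested, and the levels cover only reads assigned to a gene. The ribosomal RNAs mt-Rnr1 and mt-Rnr2 were higher by 0.41 and 0.31, but the level of ribosomal RNA in such libraries depends on how RNA was selected. All mitochondrially encoded genes together made up 0.349 to 0.366% of all counts with the knockout label and 0.240 to 0.275% with the wild-type label.

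Genes for transcription of the mitochondrial genome and processing of its RNA were 16 tested, 4 lower (25%) and 1 higher (6.25%), with a median of -0.04. Over all genes tested 19.2% were lower and 21.6% higher. The lower ones were Mtpap, its poly(A) polymerase (log2 difference -0.26), Trmt10c of the RNase P complex (-0.23), Ssbp1, which binds single-stranded DNA (-0.27), and Tfam, which packages the genome and starts its transcription (-0.19, edgeR adjusted p = 0.0405). The calls of 3 of these genes were lost without a single library. Tfam had 0.215 and 0.118 without knockout-label replicates 1 and 2 and 0.113 and 0.156 without wild-type-label replicates 2 and 3, Ssbp1 had 0.0592 without knockout-label replicate 2, and Trmt10c had 0.0526 without knockout-label replicate 3. Hsd17b10, also of the RNase P complex, was higher by 0.17 (edgeR adjusted p = 0.0416), and lost its call without any 1 library other than knockout-label replicate 1, with adjusted p between 0.0669 and 0.210.

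Of 9 listed regulators of nuclear genes for mitochondrial proteins 8 were tested, and all 8 were called, 5 lower and 3 higher. Over all genes tested 40.9% were called, 19.2% lower and 21.6% higher. The untested gene, Ppargc1a, had 3 to 11 counts per library. Gabpb1 had 16.1, 17.8 and 20.0 CPM against 26.8, 23.7 and 24.9 CPM (log2 difference -0.49, edgeR adjusted p = 7.79e-07), and its partner Gabpa, which carries the DNA-binding ETS domain, was lower by a log2 difference of -0.20. Yy1 had 140, 144 and 129 CPM against 159, 164 and 163 CPM (log2 difference -0.23, edgeR adjusted p = 5.72e-08). Nrf1 (-0.22, edgeR adjusted p = 0.0107) and the coactivator gene Pprc1 (-0.24) were lower too, and the call of Nrf1 was lost without knockout-label replicate 2 (0.195). The nuclear receptor gene Esrra, by contrast, had 57.2, 53.3 and 56.8 CPM against 48.5, 45.3 and 43.9 CPM (log2 difference 0.28, edgeR adjusted p = 1.62e-05). The coactivator gene Ppargc1b had 6.11, 5.68 and 6.36 CPM against 3.34, 4.21 and 4.10 CPM (log2 difference 0.64), and Myc was higher by 0.19 (0.0718 without wild-type-label replicate 2). In all 8 tested regulators the groups did not overlap, as in 47.8% of all genes tested. Nrf1, Gabpa and Tfam were named after their values were seen.

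Other gene groups of ribosome and respiratory chain had medians near that of all genes. Of 79 tested genes for cytosolic ribosomal proteins 19 were higher (24.1%) and 5 lower (6.33%), with a median log2 difference of 0.03. Of 77 tested nuclear genes for respiratory chain subunits 14 were higher (18.2%) and 7 lower (9.09%), with a median of 0.03. The higher shares were near the 21.6% of all genes tested, and the lower shares were below their 19.2%. The mitochondrial ribosomal protein genes, as many in number, had 1 higher and 20 lower with a median of -0.11, and the difference between these groups was not tested. The lists of mitochondrial ribosome assembly and mitochondrial protein import had medians near that of the members, -0.12 and -0.10. Their log2 differences were negative in 66.7% and 81.8% of the tested genes, against 77.9% of the members.

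**Figure D5:**
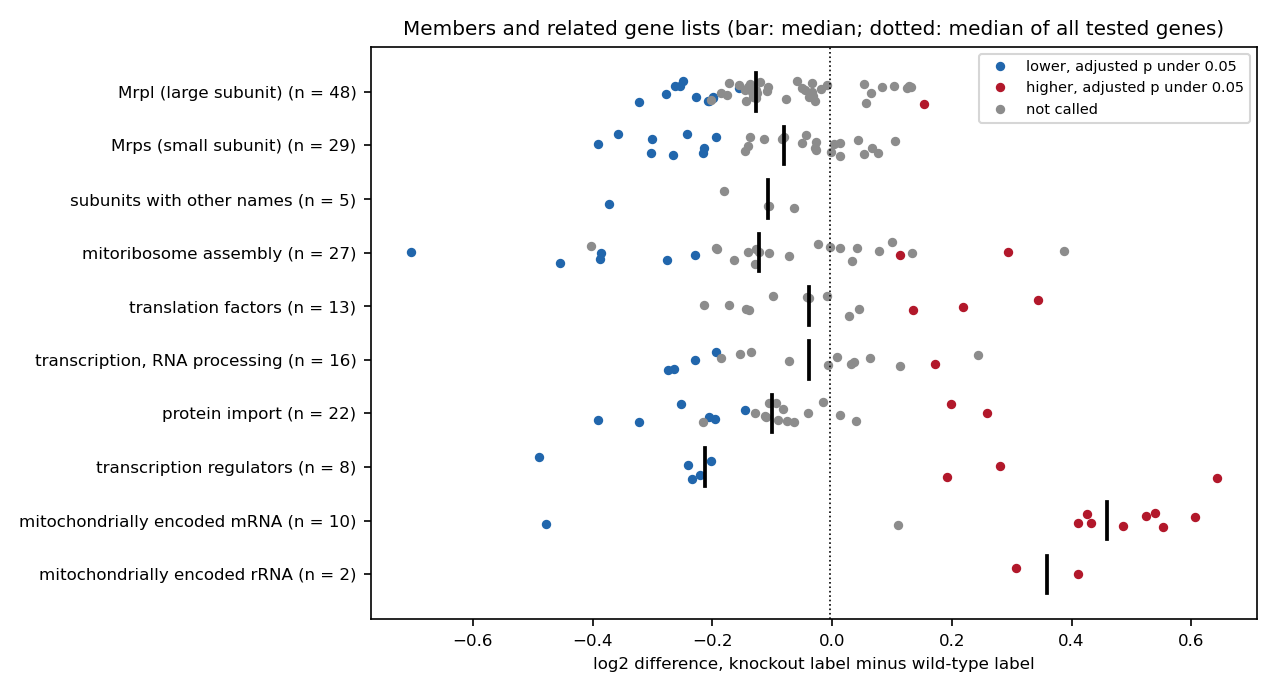
Log2 difference (horizontal axis) of every tested gene of the large and small subunit and of 8 related lists, 1 point per gene, with black bars for medians and a dotted line for the median of all genes tested. The ribosomal protein genes centre at -0.13 and -0.08, the translation factors have called genes only on the higher side, and the mitochondrially encoded messenger RNAs centre at 0.46.

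The number of lower members depended on the test. DESeq2 called 11 lower and 0 higher, 14.3% of the members against 14.2% of all genes called lower by that tool. The 10 members that it did not call were Mrpl9, Mrpl22, Mrpl24, Mrpl30, Mrpl32, Mrpl49, Mrpl51, Mrps17, Mrps22 and Mrps31, with adjusted p from 0.0568 to 0.116. With the length trend removed Mrpl24, Mrpl49 and Mrps31 lost their calls (0.0546 to 0.0810). Under an assumed biological coefficient of variation of 0.1, in place of the 2.63% estimated from these libraries, only Mrps18b was called, where 5.03% of all genes were lower, 9.28% higher and 14.3% called in either direction. In each removal of a single library, Mrpl1, Mrpl3, Mrpl17, Mrpl19, Mrps5, Mrps7, Mrps9, Mrps18b and Mrps30 kept their calls.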

How the data were processed

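Total RNA of 6 macrophage libraries was sequenced. The authors deposited a raw count of reads for each gene, beside its symbol, type, length and coordinates. The submitters' processing notes name fastp, STAR, featureCounts and mm10, without versions. Per the labels' protocols the library kit was NEBNext Ultra RNA, which does not mark strand, and the sources used here give no strand setting, so reads of overlapping genes cannot be told apart. Every row named a gene.

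The test was that of edgeR 4.0.16 in R 4.3.3 (filterByExpr with a minimum count of 10, which left 13175 genes, TMM scaling, robust quasi-likelihood test, genotype label as the only term, prior count 0.125) and Benjamini-Hochberg adjustment over all genes tested, with a threshold of 0.05. Whether replicates are separate mice or cultures is not in the labels: p-values cover the spread of these libraries alone, and that spread may be technical. Standard errors were derived from the log2 difference and the F statistic. Libraries of a group differed by more than sampling noise (variance ratios of 1.56 to 2.30). Replicate numbers did not pair the libraries, as the closing section describes. The smallest p that exact permutation allows with 3 libraries in each group is 0.1, and no such test was used.

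Alternatives were other scalings, filters, DESeq2 1.42.0 and limma-voom (limma 3.58.1), removal of length or GC trends (lowess, span 0.3), an assumed biological variation, a replicate block, and each library left out. Starts within 500 bases on opposite strands were paired, and promoter strings were searched in RefSeq windows. Figures were drawn with matplotlib 3.10.9.

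The members and lists were chosen with earlier results of these data known. Named members are up to 12 called in each direction with the largest difference, the 3 highest and 3 lowest per length, those of named sites, Mrps30, Mrps36 and the untested one. From each other list up to 3 called genes in each direction with the smallest p are named, and all 5 subunits with other names. Other called members (Mrps22, Mrps7, Mrpl9, Mrpl13, Mrpl49, Mrps17, Mrpl51) and Mrpl4, Mrpl57, Mrpl39 and Mrpl44 were named after their values were seen.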

Additional observations from a re-analysis of the deposited data

How the results depend on the processing

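Over the 17 alternatives the median log2 difference of the members stayed negative, and no called value changed sign. Members called higher were 0 with upper-quartile scaling, DESeq2, no filter on low counts or an assumed variation of 0.1, and 2 with the length trend removed. DESeq2 called 11 members, 11 of them lower, and the assumed variation 1 member, 1 of them lower, with 14 genes called over the related lists in place of 44. With the length trend removed the medians were -0.086 for all members, -0.0898 for the large and -0.0474 for the small subunit. The median was -0.0463 for the small subunit without Mrps30, Mrps18a and Mrps36. Without members that overlap another gene 8 of 37 were called (21.6%, against 40.9% of all genes tested). Leaving out each library in turn gave 15 to 22 called members, 0 to 2 higher, 15 to 22 lower, and medians of -0.114 to -0.0915 for all members (-0.142 to -0.0950 for the large and -0.10 to -0.06 for the small subunit). Why these values moved was not tested, except that fewer members or libraries enter where some are left out.

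With the replicate number as a block, 21 members were called, 20 lower and 1 higher, with a median of -0.12, and 5259 genes in all in place of 5385. Libraries with the same number did not deviate together (correlations 0.004, -0.006 and -0.021), so the numbers do not pair them. Of 1290 values of single genes under the alternatives, 1139 kept their side of the threshold, 129 lost and 22 gained a call. At this depth the smallest log2 difference called among the members was 0.15 in size.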

Other observations

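Proteins of the mitochondrial ribosome reach the matrix through the import machinery of both membranes. Of 22 tested import genes 6 were lower (27.3%, against 19.2% of all genes tested) and 2 higher in the libraries labelled knockout, with a median log2 difference of -0.10. Hspa9, the chaperone that pulls proteins into the matrix, had 612, 625 and 618 CPM against 780, 767 and 772 CPM (log2 difference -0.32, edgeR adjusted p = 3.24e-22), and its nucleotide exchange factor Grpel1 was lower by a log2 difference of -0.25. In both genes all libraries labelled knockout lay below all others. Tomm70a, a receptor of the outer membrane, was lower by -0.14. Pmpca, a subunit of the peptidase that removes import signals, was higher by 0.20 (edgeR adjusted p = 5.31e-05). Dnajc19, a co-chaperone of the motor, was higher by 0.26, a call lost without knockout-label replicate 2 (0.301) or wild-type-label replicate 1 (0.0954).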
